A study of Mus musculus with 8 samples.

Results

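The proteasome is the barrel-shaped protease that degrades proteins tagged with ubiquitin, and the genes described here encode its standing parts in mouse macrophages. They are the protein-coding genes of the deposited table whose symbols start with Psma, Psmb, Psmc, Psmd, Psme, Psmf or Psmg, together with Pomp, without the interferon-inducible Psmb8, Psmb9, Psmb10, Psme1 and Psme2, and with a mean FPKM (fragments scaled by gene length and by library) of at least 1 over 8 libraries. The names gave 46 candidates and the threshold left 43 genes of the 54532 in the table. The candidates under it were Psmb11, Psma8 and Psmc3ip at mean FPKM values of 0.00143, 0.317 and 0.384. Psmb11 and Psma8 are the thymic and testis-restricted subunits, and Psmc3ip is a meiotic recombination factor that shares only the name. The members nearest above the threshold were the chaperones Psmg3 at 1.25 FPKM and Psmd9 at 3.10 FPKM. All 43 also passed the filter on low values used for testing (1 FPKM or more in 2 or more libraries), so none was lost to it.

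In the 20S core, outer rings of α subunits (Psma genes) gate the entrance and inner rings of β subunits (Psmb genes) hold the cutting sites, of which Psmb6 carries the caspase-like, Psmb7 the trypsin-like and Psmb5 the chymotrypsin-like activity. The 19S cap recognises ubiquitin chains and unfolds the substrate with a ring of ATPases (Psmc genes) and a set of non-ATPase subunits (Psmd genes), while separate chaperones assist assembly. In macrophages interferons make an alternative core, the immunoproteasome, in which Psmb9, Psmb10 and Psmb8 take the places of Psmb6, Psmb7 and Psmb5 and which serves antigen presentation.

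The libraries were made from poly(A)-selected RNA of macrophages grown from mouse bone marrow that received spermine, a polyamine, or PBS, a salt buffer, with IFN-β for 3 h or 0 h. The 4 groups were spermine 3 h, spermine 0 h, PBS 3 h and PBS 0 h, with 2 libraries each. The sources used here give no strain, genotype, age, dose of spermine or IFN-β, or length of spermine treatment, and no PBS or spermine group spent 3 h without IFN-β, so a change from 0 h to 3 h also holds any effect of those hours. Whether the 2 libraries of a group are separate animals or cultures is not stated in the labels, and the spread behind the p-values may be technical.

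Libraries held 15723437 to 17744844 reads as rebuilt from FPKM, and each of the 43 genes had at least 37 of them in every library. The macrophage markers were present (9 of 9 at a mean of at least 1 FPKM, 11467 to 14171 FPKM in sum), and all 4 erythroid markers were at 0. The sum of 4 dendritic cell markers was 5.68 to 6.54 FPKM in spermine 3 h, 1.186 to 1.188 in spermine 0 h, 3.22 to 4.50 in PBS 3 h and 0.325 to 0.336 in PBS 0 h, none of the 4 being at 0 throughout. The sum of 3 megakaryocyte markers, of which Gp1bb was at 0 throughout, was 0.696 to 0.817 FPKM in spermine 3 h, 2.01 to 2.68 in spermine 0 h, 0.319 to 0.463 in PBS 3 h and 0.427 to 0.539 in PBS 0 h. That of 5 neutrophil markers, with Ly6g at 0 throughout, was 5.11 to 6.99 FPKM in spermine 3 h, 6.11 to 8.002 in spermine 0 h, 6.24 to 7.95 in PBS 3 h and 4.82 to 4.93 in PBS 0 h. That of 5 T cell markers, with Cd3e, Cd3d and Cd3g at 0 throughout, was 3.77 to 4.16 FPKM in spermine 3 h, 2.95 to 3.40 in spermine 0 h, 3.18 to 3.72 in PBS 3 h and 2.61 to 2.67 in PBS 0 h. A mean of at least 1 FPKM was reached by 1 of the 4 dendritic cell, 1 of the 5 T cell and 2 of the 5 neutrophil markers. None of the 3 megakaryocyte markers reached it. These sums may thus rest on 1 or 2 genes. The part of these markers in the results below was not tested. In bulk RNA, fewer cells of a type and less RNA per cell cannot be told apart. Tests used limma on log2(FPKM + 1) over 11421 genes with Benjamini-Hochberg adjustment over all of them. "Rose" and "fell" stand for an adjusted p under 0.05, and fold changes are on the FPKM + 1 scale.

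The deposited FPKM are not scaled to library totals: their scale equals that of median-of-ratios size factors, which hold the median gene steady, and the summed FPKM of a library ran from 248254 to 404833. Values were also rescaled to TPM, a transcript share with the same total in every library. The log2 changes of single genes then moved, in the median over all tested genes, by -0.34 with spermine at 0 h and -0.20 at 3 h. They moved by -0.46 with IFN-β in PBS and by -0.33 with IFN-β in spermine. The median of the 43 genes relative to the median of all genes moved by 0.02 or less, with 0.51 on the deposited scale and 0.49 in TPM with spermine at 0 h, 0.29 and 0.28 at 3 h, 0.24 and 0.23 with IFN-β in PBS, and 0.13 and 0.15 with IFN-β in spermine. After quantile normalization it was lower, at 0.37 with spermine at 0 h, 0.17 at 3 h, 0.11 with IFN-β in PBS and -0.09 with IFN-β in spermine. The changes below are on the deposited scale, relative to the median gene. Those of the family with IFN-β depend on that choice, and so do the counts of genes called with spermine.

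Summed over the 43 genes, proteasome mRNA was highest where the cells had both agents. The sum was 1742 and 1678 FPKM in spermine 3 h, 1532 and 1546 FPKM in spermine 0 h, 1372 and 1365 FPKM in PBS 3 h, and 1000.0 and 1015 FPKM in PBS 0 h. No library of a group overlapped another group on this scale. In TPM the order changed, with means of 4247 in spermine 3 h, 4823 in spermine 0 h, 3925 in PBS 3 h and 4016 in PBS 0 h, so the excess of spermine over PBS kept its direction and the excess of 3 h over 0 h turned round. Of the 43 genes 22 had their highest group mean FPKM in spermine 3 h and 13 in spermine 0 h, against 6 in PBS 3 h and 2 in PBS 0 h, and 36 had their lowest in PBS 0 h. These counts hold for the deposited scale. They were not made in TPM or over all tested genes, so they do not show a trait particular to this family.

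**Figure D1:**
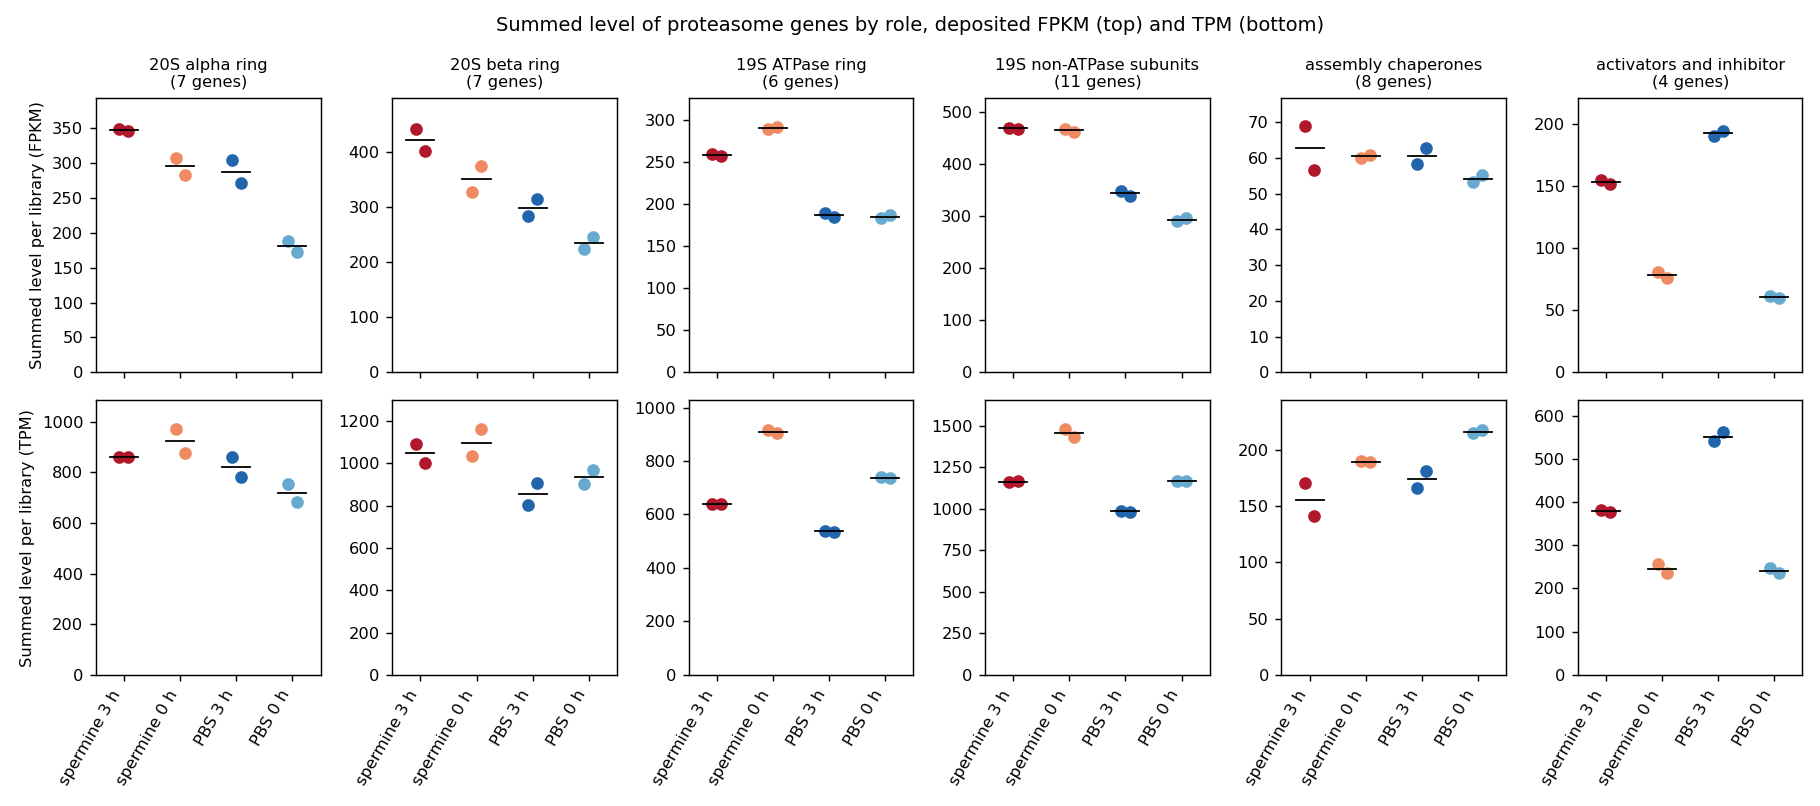
Summed level of the proteasome genes of each role in each library, in deposited FPKM (upper row) and in TPM (lower row). Points are libraries and lines are group means of 2 libraries. The 19S ATPase ring reached 258.8 and 256.7 FPKM in spermine 3 h, 289.2 and 290.9 FPKM in spermine 0 h, 189.7 and 184.6 FPKM in PBS 3 h, and 183.7 and 186.4 FPKM in PBS 0 h, and the assembly chaperones lie close together in FPKM.

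Levels per length ordered the roles. The 14 subunits of the 20S core averaged 13.9 to 92.0 FPKM with a median of 39.3, and the 17 subunits of the 19S cap 15.3 to 84.9 FPKM with a median of 25.4. The 8 chaperones lay between 1.25 and 13.4 FPKM with a median of 5.99. Psmb5 was the highest of all members and Psmg3 the lowest. Mean mRNA levels thus spanned a 6.60-fold range within the core and a 5.57-fold range within the cap.

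On the deposited scale, the mRNA of most of these genes was higher with spermine without IFN-β. Of the 43 genes 32 rose and 1 fell in spermine 0 h against PBS 0 h, where 22% of all tested genes rose and 19.2% fell, and the members' median log2 change was 0.53 against 0.01 over all genes. The rise took in 7 of 7 α subunits, 6 of 7 β subunits, 6 of 6 ATPases and 10 of 11 non-ATPase subunits, but 1 of 8 chaperones and 2 of 4 activators and inhibitors. The subunits that missed the threshold were Psmb4, with a log2 change of 0.39 ± 0.14 (SE, adjusted p = 0.0552), and Psmd3, with 0.32 ± 0.11 (adjusted p = 0.0554). In TPM 17 rose and 4 fell, against 10.4% and 41.5% of all tested genes. By role, 3 of 7 α subunits, 1 of 7 β subunits, 4 of 6 ATPases, 7 of 11 non-ATPase subunits, 1 of 8 chaperones and 1 of 4 activators and inhibitors rose in TPM. Of the calls, 17 rises held under all of the alternatives run. The fall of Psmg1 held in each alternative that tested the gene, and the filter at 5 FPKM removed it.

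The largest rise was that of Psmd11, a non-ATPase subunit of the lid that helps to hold the core and the cap together, at chr11:80428615-80473248 on the plus strand (GRCm38). Its level was 24.4 and 24.7 FPKM in spermine 0 h, against 8.76 and 8.56 FPKM in PBS 0 h. The groups stood far apart, by a log2 change of 1.40 ± 0.07 (SE, limma adjusted p = 2.35e-05), a 2.64-fold difference. With IFN-β the level was 18.0 and 18.2 FPKM in spermine 3 h, against 10.2 and 9.29 FPKM in PBS 3 h (log2 change 0.83 ± 0.07, adjusted p = 0.000183).

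The α subunit Psma5 (chr3:108256926-108279974, plus strand) came next. Its level was 76.6 and 63.7 FPKM in spermine 0 h, against 29.7 and 26.0 FPKM in PBS 0 h, a log2 change of 1.30 ± 0.13 (adjusted p = 0.000357). At 3 h it was 109.3 and 109.0 FPKM in spermine, against 92.4 and 76.6 FPKM in PBS, where the libraries still did not overlap but the difference of 0.37 ± 0.13 missed the threshold (adjusted p = 0.0521). The other α subunits rose by 0.47 to 0.75 at 0 h.

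Psmd14, the deubiquitinase of the lid that removes the ubiquitin chain before a substrate enters, had 30.3 and 27.8 FPKM in spermine 0 h, against 13.0 and 12.6 FPKM in PBS 0 h. It rose by 1.12 ± 0.15 (adjusted p = 0.00122), without overlap of the libraries. At 3 h its rise of 0.49 ± 0.15 (adjusted p = 0.0332) rested on 25.7 and 27.0 FPKM in spermine, against 21.9 and 15.5 FPKM in PBS, and it missed the threshold in 9 of the alternatives. The ubiquitin receptors changed less. Psmd4 had 35.3 and 38.3 FPKM in spermine 0 h, against 24.0 and 23.5 FPKM in PBS 0 h (0.61 ± 0.08, adjusted p = 0.00157). Psmd2, the scaffold that also docks ubiquitin-like shuttle proteins, had 97.5 and 98.4 FPKM in spermine 0 h, against 66.5 and 68.5 FPKM in PBS 0 h (0.53 ± 0.06, adjusted p = 0.00055). Both pairs of libraries were closely matched within each group, and both genes rose at 3 h too, by 0.49 ± 0.08 for Psmd4 and 0.36 ± 0.06 for Psmd2.

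Each gene of the ATPase ring rose with spermine without IFN-β on the deposited scale, by 0.34 for Psmc4 to 0.85 for Psmc6. Psmc1 had 89.8 and 90.9 FPKM in spermine 0 h, against 49.7 and 50.03 FPKM in PBS 0 h, a log2 change of 0.84 ± 0.07 (adjusted p = 0.000137). At 3 h it had 64.9 and 64.1 FPKM in spermine, against 38.0 and 34.6 FPKM in PBS, a change of 0.81 ± 0.07 (adjusted p = 0.000175). Spermine libraries were thus higher by nearly the same factor at both times.

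Of the catalytic β subunits, Psmb6 kept its rise at both times under all of the alternatives run. It had 66.1 and 74.4 FPKM in spermine 0 h, against 41.0 and 44.4 FPKM in PBS 0 h (0.70 ± 0.13, adjusted p = 0.00456), and 93.2 and 81.0 FPKM in spermine 3 h, against 49.1 and 61.1 FPKM in PBS 3 h (0.66 ± 0.13, adjusted p = 0.00639). Psmb5 had 93.3 and 124.3 FPKM in spermine 0 h, against 57.5 and 69.3 FPKM in PBS 0 h (0.76 ± 0.19, adjusted p = 0.0193). In no other member did spermine 3 h exceed PBS 3 h by as much as in Psmb5, with 134.4 and 122.0 FPKM in spermine and 56.5 and 78.6 FPKM in PBS (0.93 ± 0.19, adjusted p = 0.00911). Its 0 h rise was lost in TPM (0.42, adjusted p = 0.105), in quantile normalization, with no filter, when PBS 0 h replicate 1 was left out and when spermine 0 h replicate 2 was, and its 3 h rise without spermine 3 h replicate 1 (adjusted p = 0.0609). Psmb7 had 13.7 and 15.2 FPKM in spermine 0 h, against 9.09 and 10.6 FPKM in PBS 0 h (0.52 ± 0.09, adjusted p = 0.00385). Its exons share 11.8% of their bases with Nek6 on the opposite strand, and the strand of the libraries is not stated.

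The promoters of 5 members whose levels the results turn on are printed here, from RefSeq on GRCm38.p6, each from 250 bases before to 50 bases after the RefSeq start, 5′ to 3′ on the strand of the gene. For Psme4, Psmb5 and Psmb6 that start is not the end of the gene as positioned in the deposited annotation. Psmd11 and Psma5 had the largest rises with spermine at 0 h, Psme4 the largest difference between the IFN-β responses, and Psmb5 and Psmb6 are catalytic. Capitals mark matches to TGACNNNGC, the core of the antioxidant response element that NRF2 and its relative NRF1 bind with small Maf proteins, searched on both strands.
Psmd11 (chr11:80428365-80428664, + strand): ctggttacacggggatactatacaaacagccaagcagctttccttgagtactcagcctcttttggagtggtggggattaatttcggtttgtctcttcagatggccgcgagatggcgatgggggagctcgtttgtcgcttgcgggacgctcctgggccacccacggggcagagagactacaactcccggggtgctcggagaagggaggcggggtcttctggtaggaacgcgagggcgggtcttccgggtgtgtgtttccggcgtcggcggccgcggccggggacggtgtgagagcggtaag
Psma5 (chr3:108256676-108256975, + strand): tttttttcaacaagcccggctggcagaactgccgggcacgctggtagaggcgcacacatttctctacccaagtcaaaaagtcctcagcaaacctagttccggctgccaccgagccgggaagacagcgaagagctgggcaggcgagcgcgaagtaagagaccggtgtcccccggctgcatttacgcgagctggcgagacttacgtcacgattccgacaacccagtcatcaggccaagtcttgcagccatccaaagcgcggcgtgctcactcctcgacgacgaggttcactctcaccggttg
Psme4 (chr11:30771525-30771824, + strand): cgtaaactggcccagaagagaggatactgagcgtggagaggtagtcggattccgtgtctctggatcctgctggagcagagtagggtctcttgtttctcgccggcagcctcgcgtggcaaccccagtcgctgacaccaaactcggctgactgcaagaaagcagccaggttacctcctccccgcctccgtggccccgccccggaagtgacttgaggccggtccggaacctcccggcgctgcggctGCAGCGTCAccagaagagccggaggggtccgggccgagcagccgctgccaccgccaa
Psmb5 (chr14:54617946-54618245, - strand): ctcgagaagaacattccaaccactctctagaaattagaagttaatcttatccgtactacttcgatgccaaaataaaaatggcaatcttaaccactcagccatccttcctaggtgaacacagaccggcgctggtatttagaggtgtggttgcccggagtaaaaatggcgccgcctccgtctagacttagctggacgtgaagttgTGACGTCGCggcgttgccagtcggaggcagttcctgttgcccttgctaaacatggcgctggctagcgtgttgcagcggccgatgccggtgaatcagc
Psmb6 (chr11:70525107-70525406, + strand): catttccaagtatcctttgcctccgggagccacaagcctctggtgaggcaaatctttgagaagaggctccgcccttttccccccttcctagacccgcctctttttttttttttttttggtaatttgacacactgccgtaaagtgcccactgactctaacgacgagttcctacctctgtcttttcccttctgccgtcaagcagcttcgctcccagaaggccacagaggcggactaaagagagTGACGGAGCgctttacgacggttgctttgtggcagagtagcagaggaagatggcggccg
The match in Psmb5 begins 47 bases before the RefSeq start and that in Psmb6 9 bases before it. That in Psme4, on the other strand, begins 7 bases before the RefSeq start and runs across it. Psmd11 and Psma5 have none in this window. Among the 36 members with a RefSeq promoter, 6 held the motif (16.7%), against 13.99% of all 27025 genes with a promoter, the others being Psmc6, Psmd12 and Psmd9. Psmb1, Psmb2, Psmb7, Psmc3, Psmd3, Psmd7 and Psmg2 were not matched. The members' share was thus close to that of all genes, and 5 of the 6 with the motif and 22 of the 30 without it rose with spermine at 0 h. The interferon-stimulated response element core, GAAA followed by 2 free bases and GAAA again, was found in 4 of 36 (11.1%, against 3.99% of genes): Psmb3, Psmd4, Psmd9 and Psmg4, of which Psmd9 rose with IFN-β in PBS. CCAAT, bound by NF-Y, was found in 12 (33.3%, against 41.1%), and TTCNNNGAA, bound by STAT dimers, in 2 (5.56%, against 9.55%). These matches describe letters only.

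Of the 8 assembly chaperones 1 rose with spermine at 0 h and 1 fell. Psmd5, a chaperone of the 19S base that is also known to restrain proteasome assembly, was the one that rose, at both times. It had 12.3 and 11.1 FPKM in spermine 0 h, against 4.47 and 4.97 FPKM in PBS 0 h (log2 change 1.15 ± 0.10, adjusted p = 0.000216), and 5.11 and 5.14 FPKM in spermine 3 h, against 2.10 and 2.57 FPKM in PBS 3 h (0.88 ± 0.10, adjusted p = 0.000681). The libraries were apart at both times. Psmg1, a partner of Psmg2 in α ring assembly, was the single member that fell with spermine at 0 h. It had 3.19 and 3.48 FPKM in spermine 0 h, against 4.81 and 5.46 FPKM in PBS 0 h (-0.50 ± 0.09, adjusted p = 0.00476). Pomp, which closes the β ring and matures the core, had 11.6 and 12.6 FPKM in spermine 0 h, against 10.9 and 10.5 FPKM in PBS 0 h, a difference of 0.16 ± 0.07 that did not pass (adjusted p = 0.131). Psmd10, the gankyrin chaperone of the base, had 12.3 and 10.2 FPKM in spermine 0 h, against 11.7 and 12.0 FPKM in PBS 0 h, with overlapping libraries and a change of -0.07 ± 0.15 (adjusted p = 0.748). The chaperones' median log2 change was 0.02, against 0.61 for the non-ATPase subunits.

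**Figure D2:**
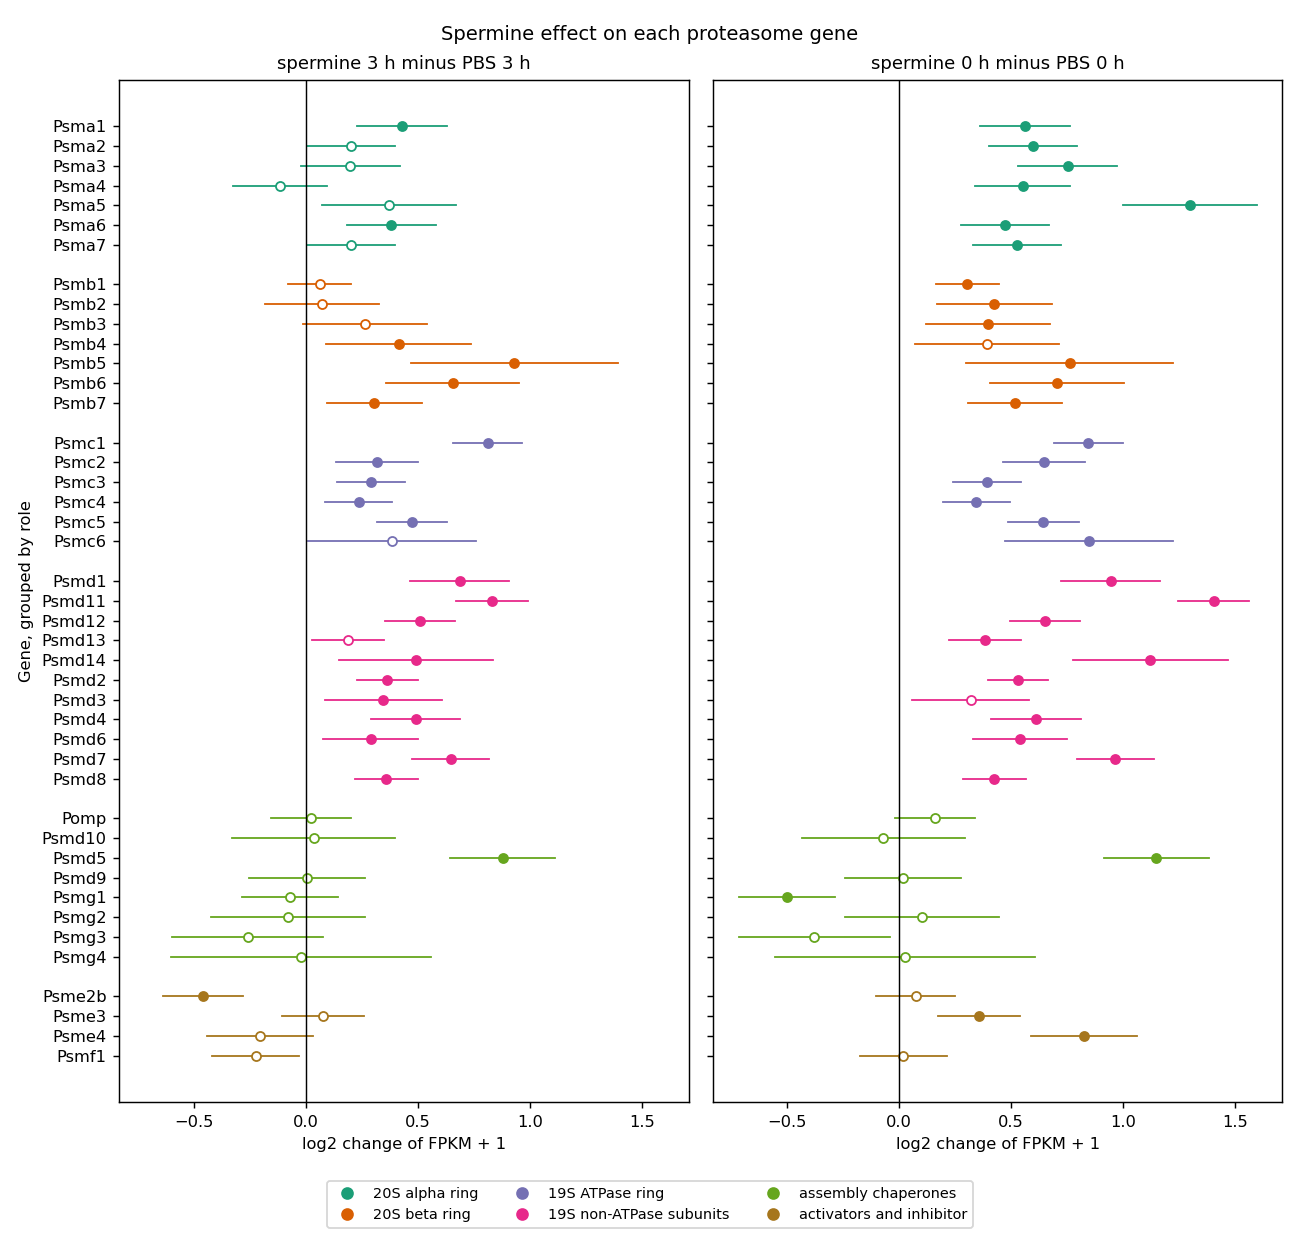
Log2 change of FPKM + 1 with spermine for each of the 43 genes, at 3 h of IFN-β (left) and at 0 h (right). Points are limma estimates with 95% confidence intervals, filled where the adjusted p was under 0.05, and colours give the role. Nearly every subunit of the core and the cap lies right of 0 at 0 h, from 0.30 for Psmb1 to 1.40 for Psmd11, while the chaperones other than Psmd5 scatter around 0.

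With IFN-β present, most of the genes higher with spermine were of the 19S cap. Of the 43 genes 22 rose and 1 fell in spermine 3 h against PBS 3 h, where 19.9% of all tested genes rose and 20.6% fell, and the median log2 change was 0.29 against -0.00 over all genes. The rises took in 10 of 11 non-ATPase subunits, 5 of 6 ATPases and 4 of 7 β subunits, but 2 of 7 α subunits (Psma1 and Psma6), 1 of 8 chaperones and none of the 4 activators and inhibitors. In TPM 10 rose and 4 fell, against 11.7% and 32.2% of all genes. By role, 5 of 11 non-ATPase subunits, 2 of 6 ATPases and 2 of 7 β subunits rose in TPM. Of the rest, 1 of 8 chaperones rose, and no α subunit, activator or inhibitor did. Psmd11, Psmd5, Psmc1, Psmd1, Psmb6, Psmd7, Psmd12, Psmd4 and Psmc5 are the 9 that rose under all of the alternatives run. Psmd7, the partner of Psmd14 in the lid, had 56.1 and 56.8 FPKM in spermine 3 h, against 37.6 and 33.9 FPKM in PBS 3 h (0.65 ± 0.07, adjusted p = 0.000644). Of the 32 that rose at 0 h, 20 rose at 3 h as well, an overlap that was not counted over all tested genes.

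With IFN-β in PBS the rises were largest for Psme2b, Psma5 and Psme4, followed by further α subunits. Of the 43 genes 21 rose and 2 fell in PBS 3 h against PBS 0 h, where 24.6% of all tested genes rose and 25% fell (49.6% in either direction), with a median log2 change of 0.23 against -0.02 over all genes. In TPM 6 rose and 16 fell, against 14.8% and 55.3% of all genes, and the median of the 43 turned to -0.24, so the direction for the family rests on the scale while individual extremes do not. Those that held under all alternatives were Psme2b, Psma5, Psme4, Psma3, Psma4 and Psma2, which rose, and Psmd5 and Psmc1, which fell. On the deposited scale 5 of 7 α subunits, 4 of 7 β subunits, 2 of 6 ATPases and 5 of 11 non-ATPase subunits rose. In TPM 4 of 7 α subunits and no subunit of the other rings or the cap rose.

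Within the α ring the log2 changes ran from -0.15 to 1.56. Psma5 had 92.4 and 76.6 FPKM in PBS 3 h, against 29.7 and 26.0 FPKM in PBS 0 h, a log2 change of 1.56 ± 0.13 (adjusted p = 6.11e-05). Psma3 had 19.9 and 17.6 FPKM in PBS 3 h, against 8.95 and 7.85 FPKM in PBS 0 h (1.07 ± 0.09, adjusted p = 8.59e-05). Psma4 had 49.8 and 44.6 FPKM in PBS 3 h, against 24.7 and 22.3 FPKM in PBS 0 h (0.98 ± 0.09, adjusted p = 0.000111). Psma2 rose by 0.78 ± 0.08 (adjusted p = 0.00024), while Psma1, which sits in the same ring, had 34.3 and 30.2 FPKM in PBS 3 h, against 37.8 and 34.1 FPKM in PBS 0 h (-0.15 ± 0.08, adjusted p = 0.177). Psma6 had a change of 0.12 ± 0.08 (adjusted p = 0.288).

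Of the catalytic subunits that the immunoproteasome replaces, Psmb7 alone passed with IFN-β in PBS. Psmb5 had 56.5 and 78.6 FPKM in PBS 3 h, against 57.5 and 69.3 FPKM in PBS 0 h, with overlapping libraries (0.08 ± 0.19, adjusted p = 0.771). Psmb6 had 49.1 and 61.1 FPKM in PBS 3 h, against 41.0 and 44.4 FPKM in PBS 0 h (0.35 ± 0.13, adjusted p = 0.053). Psmb7 had 13.9 and 14.005 FPKM in PBS 3 h, against 9.09 and 10.6 FPKM in PBS 0 h, and rose by 0.47 ± 0.09 (adjusted p = 0.00408), a call lost in TPM (0.03, adjusted p = 0.771). Each of the 5 immunoproteasome genes rose. The ratio of an induced subunit to the one it replaces is free of the library scale. For Psmb8 over Psmb5 it averaged 0.546 in spermine 3 h, 0.0886 in spermine 0 h, 1.16 in PBS 3 h and 0.201 in PBS 0 h. For Psmb9 over Psmb6 it averaged 0.407 in spermine 3 h, 0.0357 in spermine 0 h, 1.00 in PBS 3 h and 0.148 in PBS 0 h. For Psmb10 over Psmb7 it averaged 5.73 in spermine 3 h, 0.998 in spermine 0 h, 12.8 in PBS 3 h and 1.62 in PBS 0 h. In all 3 pairs both libraries of each spermine group lay below both PBS libraries of the same time, and both 3 h libraries above both 0 h libraries of the same treatment. An exact permutation test of 2 against 2 libraries cannot give a two-sided p below 0.333.

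**Figure D3:**
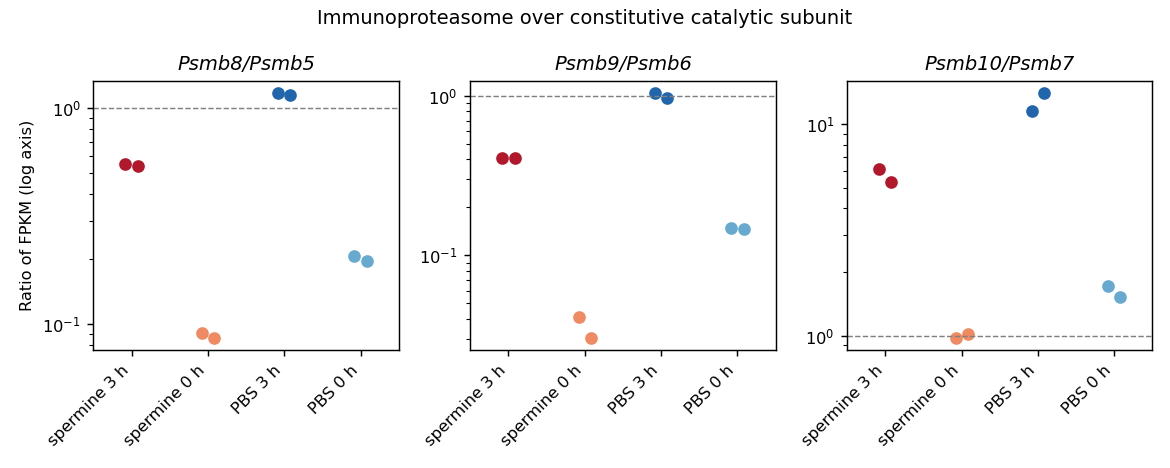
Ratio of the FPKM of each immunoproteasome catalytic subunit to that of the constitutive subunit it replaces, for each library on a log axis. The dashed line marks equal FPKM. Psmb8 over Psmb5 and Psmb9 over Psmb6 come to 1.16 and 1.00 on average in PBS 3 h, against 0.546 and 0.407 in spermine 3 h.

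Among the activators, which cap the core in place of the 19S particle, Psme4 rose with IFN-β in PBS and Psme3 did not pass. Psme4 encodes PA200, a large nuclear activator, at chr11:30771726-30880361. It had 29.6 and 26.8 FPKM in PBS 3 h, against 10.99 and 10.5 FPKM in PBS 0 h (log2 change 1.31 ± 0.10, adjusted p = 4.6e-05). Psme3, the nuclear PA28γ, had 28.0 and 25.1 FPKM in PBS 3 h, against 25.8 and 25.9 FPKM in PBS 0 h, with overlapping libraries (0.04 ± 0.08, adjusted p = 0.735). Psmf1, the inhibitor PI31, had 7.83 and 7.68 FPKM in PBS 3 h, against 5.06 and 4.68 FPKM in PBS 0 h, and rose by 0.58 ± 0.08 (adjusted p = 0.00099), a call lost in TPM (0.19, adjusted p = 0.119). With spermine at 0 h Psme4 had 21.8 and 18.0 FPKM, against 10.99 and 10.5 FPKM in PBS 0 h (0.82 ± 0.10, adjusted p = 0.000898). Psmf1 had 5.19 and 4.69 FPKM in spermine 0 h, against 5.06 and 4.68 FPKM in PBS 0 h (0.02 ± 0.08, adjusted p = 0.878), and in TPM it was lower with spermine (-0.31).

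Psme2b stands apart from the rest of the set. It is a retrogene copy of the interferon-inducible activator gene Psme2, at chr11:48945354-48946190, so reads from Psme2 may be counted to it, and 41 of its exon bases are shared with 9930111J21Rik1. It had 125.0 and 134.4 FPKM in PBS 3 h, against 19.5 and 18.6 FPKM in PBS 0 h (log2 change 2.71 ± 0.07, adjusted p = 3.14e-07), a larger rise than that of Psme2 (2.08 ± 0.08). With spermine at 0 h the 2 genes differed as well. In the fits that left out 1 library the log2 change there was -0.58 to -0.39 for Psme2 and 0.01 to 0.13 for Psme2b. In spermine 3 h Psme2b had 96.7 and 91.6 FPKM, against 125.0 and 134.4 FPKM in PBS 3 h, and it was the single member that fell there (-0.46 ± 0.07, adjusted p = 0.00328). Without it, 20 of 42 members rose and 2 fell with IFN-β in PBS, 9 rose and 7 fell with IFN-β in spermine, 32 rose and 1 fell with spermine at 0 h, and 22 rose and none fell with spermine at 3 h. The summed level of the 42 was 1616 FPKM on average in spermine 3 h, 1519 in spermine 0 h, 1239 in PBS 3 h and 989 in PBS 0 h.

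The 2 genes that fell with IFN-β in PBS, Psmd5 and Psmc1, also fell with IFN-β in spermine. Psmd5 had 2.10 and 2.57 FPKM in PBS 3 h, against 4.47 and 4.97 FPKM in PBS 0 h (-0.78 ± 0.10, adjusted p = 0.000578), and 5.11 and 5.14 FPKM in spermine 3 h, against 12.3 and 11.1 FPKM in spermine 0 h (-1.05 ± 0.10, adjusted p = 0.000215). Psmc1 fell with IFN-β by 0.45 on the log2 scale in PBS (SE 0.07, adjusted p = 0.00115) and by 0.48 in spermine (SE 0.07, adjusted p = 0.00123). The difference between the responses in PBS and with spermine did not pass for either gene.

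In cells with spermine, Psme2b, Psma5 and Psmb4 had the largest rises with IFN-β, and members of the cap were among the falls. Of the 43 genes 10 rose and 7 fell in spermine 3 h against spermine 0 h, where 19.7% of all tested genes rose and 22.1% fell, and the median log2 change was 0.12 against -0.01 over all genes. In TPM 1 rose and 18 fell, against 12% and 44% of all genes, with a median of -0.17 for the 43. The risers were 4 α subunits (Psma2, Psma3, Psma4 and Psma5), Psmb4, Psmd8, Pomp, Psmg1, Psmf1 and Psme2b, and of these Psme2b alone held under all of the alternatives. The falls of Psmd5, Psmc1, Psmd1 and Psmd11 held under all of them, and those of Psma1, Psmc2 and Psme3 did not. Psmd1, the large scaffold subunit of the cap, had 26.8 and 27.7 FPKM in spermine 3 h, against 41.2 and 35.4 FPKM in spermine 0 h (-0.47 ± 0.09, adjusted p = 0.00668). Psmb4, a non-catalytic β subunit, had 76.0 and 69.1 FPKM in spermine 3 h, against 45.1 and 55.3 FPKM in spermine 0 h (0.53 ± 0.14, adjusted p = 0.0192). Pomp had 16.0 and 15.2 FPKM in spermine 3 h, against 11.6 and 12.6 FPKM in spermine 0 h (0.34 ± 0.07, adjusted p = 0.01).

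**Figure D4:**
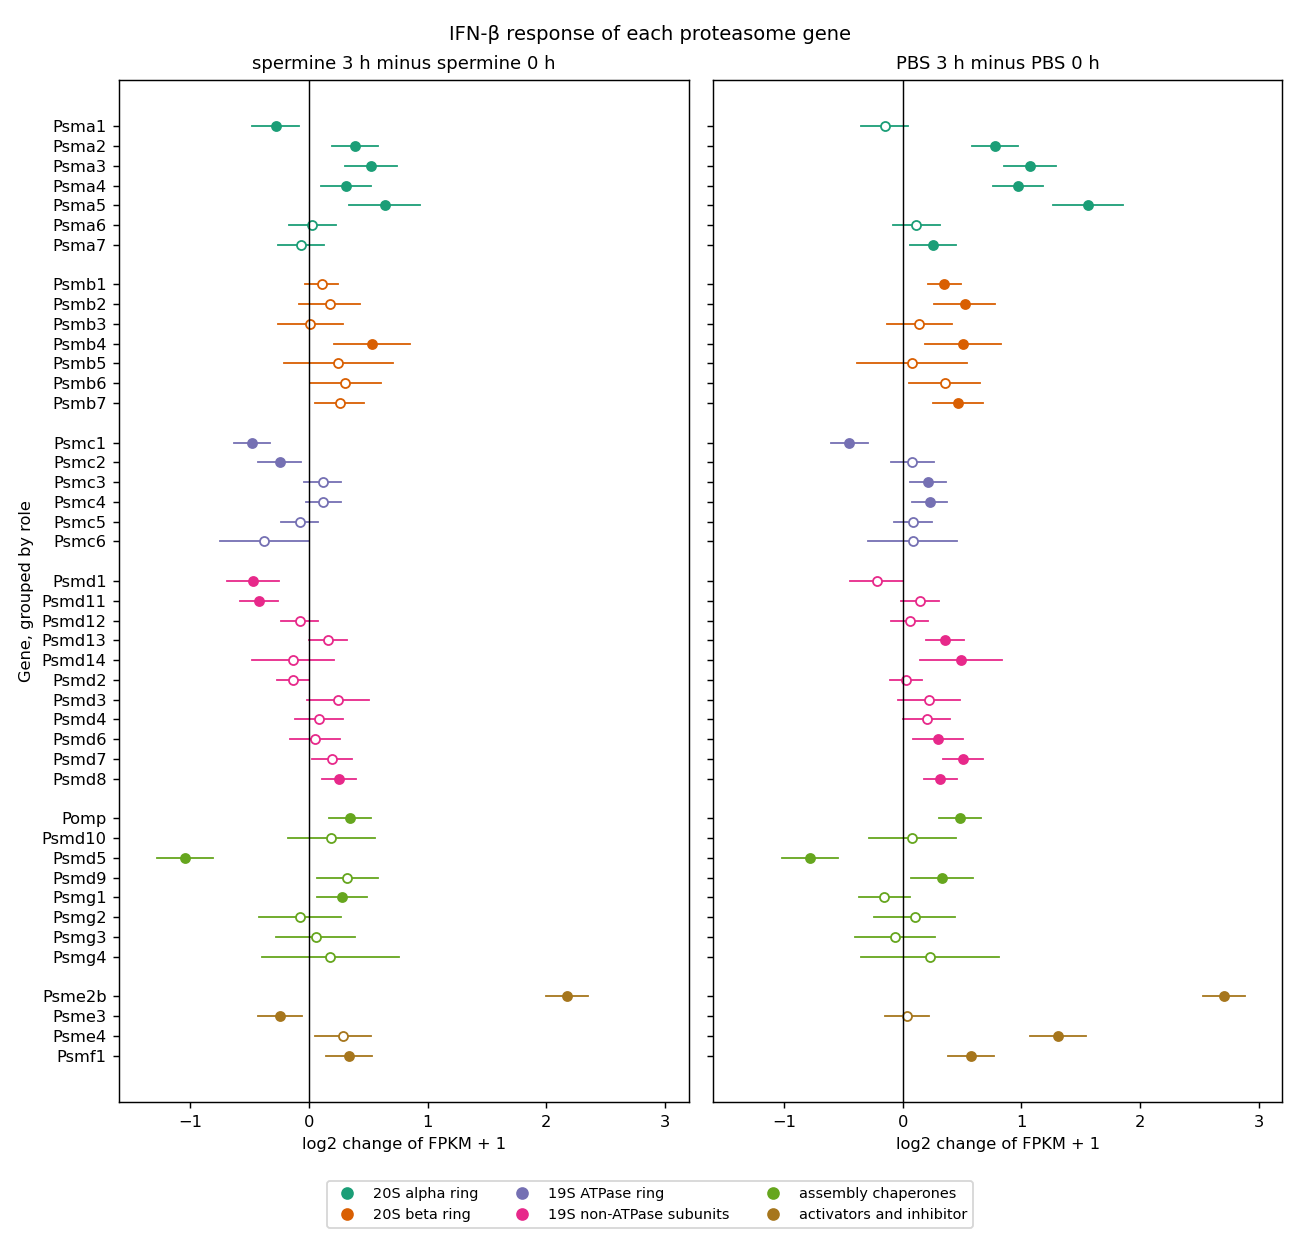
Log2 change of FPKM + 1 from 0 h to 3 h of IFN-β for each of the 43 genes, with spermine (left) and in PBS (right). Points are limma estimates with 95% confidence intervals, filled where the adjusted p was under 0.05, and colours give the role. Psma2 to Psma5, Psme4 and Psme2b lie farthest right in PBS, from 0.78 for Psma2 to 2.71 for Psme2b, and Psmd5 lies farthest left in both panels, at -1.05 with spermine and -0.78 in PBS.

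Whether IFN-β responses differed, as spermine minus PBS, was tested as an interaction in the same fit. It passed for 6 of the 43 genes, all lower with spermine, where 7.75% of all tested genes were lower and 5.82% higher, and the median difference was -0.18 against -0.02 over all genes. Psme4 differed most, by -1.03 ± 0.14 (adjusted p = 0.00681): it had 23.9 and 24.7 FPKM in spermine 3 h, against 21.8 and 18.0 FPKM in spermine 0 h, and 29.6 and 26.8 FPKM in PBS 3 h, against 10.99 and 10.5 FPKM in PBS 0 h. Psma5 followed with -0.93 ± 0.18 (adjusted p = 0.0194), Psma4 with -0.67 ± 0.13 (adjusted p = 0.0183), Psmd11 with -0.57 ± 0.10 (adjusted p = 0.0129), Psma3 with -0.55 ± 0.13 (adjusted p = 0.0377) and Psme2b with -0.53 ± 0.11 (adjusted p = 0.0214). In 5 of the 6 both spermine 0 h libraries stood above both PBS 0 h libraries. Psme2b was the exception, at 19.2 and 20.95 FPKM in spermine 0 h, against 19.5 and 18.6 FPKM in PBS 0 h. Such a separation was seen in 36 of the 43 members, and 2 more were apart in the other direction. Of all tested genes 70.9% had no overlap, counted over both directions. A share for the higher direction alone was not computed. From 0 h to 3 h with spermine Psmd11 fell, and the others increased by less than in PBS. The difference of responses uses the same 0 h values, and a link between level and response was not tested. Psme4 alone kept the call under all of the alternatives run, and the count dropped to 1 when PBS 0 h replicate 2, spermine 3 h replicate 1 or spermine 3 h replicate 2 was left out.

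**Figure D5:**
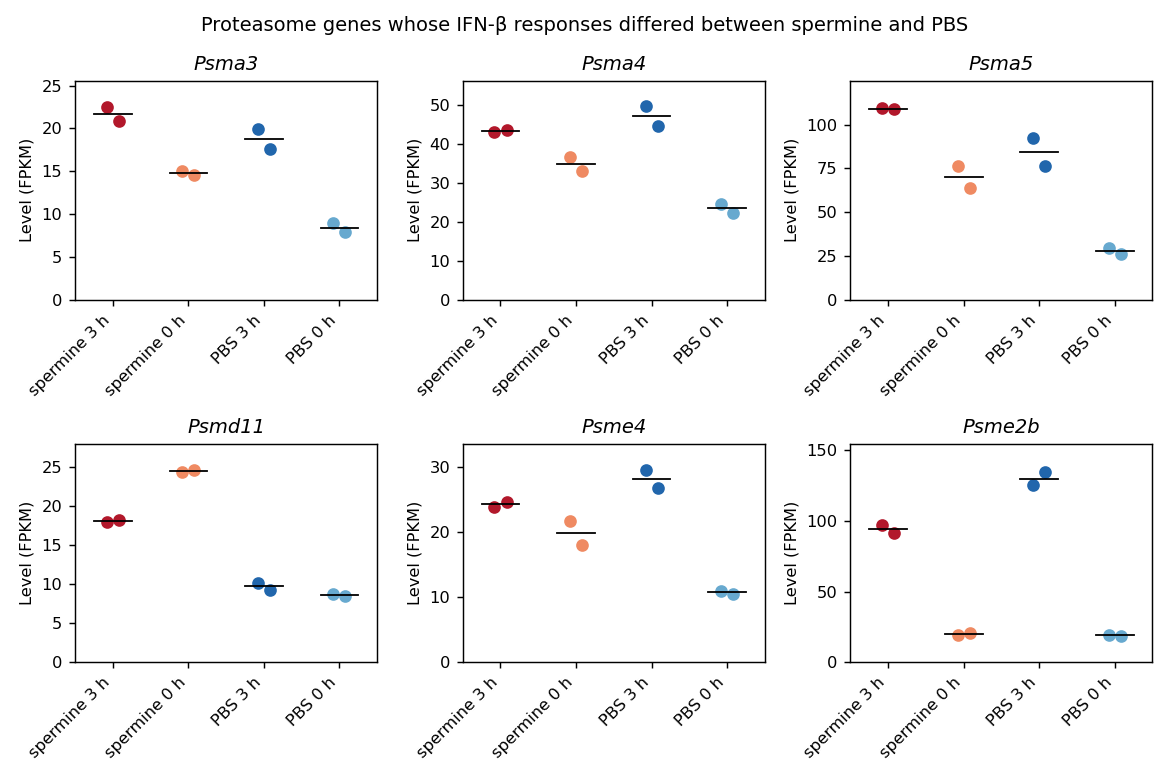
FPKM per library of the 6 proteasome genes whose IFN-β responses differed between spermine and PBS. Points are libraries and lines are group means. For Psmd11 the spermine 0 h libraries, at 24.4 and 24.7 FPKM, are the highest of all, whereas Psma4, Psme4 and Psme2b are highest in PBS 3 h.

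Many genes that work with the proteasome rose with spermine. Of 19 partners on the list (shuttles, unfoldases, deubiquitinases and loading factors) 18 were tested. With spermine 13 rose at 0 h and 10 at 3 h, and none fell, while with IFN-β 2 rose and 4 fell in PBS and 1 rose and 10 fell with spermine. Of all tested genes 22% rose with spermine at 0 h and 19.9% at 3 h, 24.6% rose and 25% fell with IFN-β in PBS, and 19.7% rose and 22.1% fell with IFN-β in spermine. In TPM 8 partners rose and 1 fell with spermine at 0 h, against 10.4% and 41.5% of all genes, and 8 rose and 3 fell at 3 h, against 11.7% and 32.2%. For IFN-β in PBS TPM gave 1 rise and 15 falls, against 14.8% and 55.3% of all genes. For IFN-β in spermine it gave no rise and 13 falls, against 12% and 44%. Zfand5, which stimulates the proteasome, had 71.8 and 73.9 FPKM in spermine 0 h, against 16.9 and 19.02 FPKM in PBS 0 h (1.96 ± 0.07, adjusted p = 9.1e-06). Zfand2a, the arsenite-inducible AIRAP, had 119.7 and 125.4 FPKM in spermine 0 h, against 42.1 and 44.1 FPKM in PBS 0 h (1.49 ± 0.06). Txnl1, a thioredoxin of the cap, rose by 1.35 ± 0.06, Vcp, the unfoldase p97, by 1.06 ± 0.07 and Akirin2, which carries proteasomes into the nucleus, by 1.01 ± 0.08. Ecpas, known to bind the particle under stress, rose by 1.11 ± 0.12 at 0 h and had the largest difference between the IFN-β responses of the list (-1.41 ± 0.17, adjusted p = 0.0043).

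Of the ubiquitin genes, Ubb, which encodes a chain of ubiquitin units, rose with spermine at both times, also in TPM (1.65 at 3 h and 1.08 at 0 h). It had 562.1 and 506.0 FPKM in spermine 3 h, against 147.2 and 146.8 FPKM in PBS 3 h (log2 change 1.85 ± 0.09, limma adjusted p = 2.34e-05), and 486.1 and 484.1 FPKM in spermine 0 h, against 194.8 and 167.1 FPKM in PBS 0 h (1.42 ± 0.09, adjusted p = 5.82e-05). The libraries of spermine and PBS were apart at both times. Uba1, the main activating enzyme, rose by 0.19 ± 0.06 at 3 h, where it was at -0.02 in TPM, and by 0.54 ± 0.06 at 0 h. Rps27a, which encodes ubiquitin fused to a ribosomal protein, had overlapping libraries at 0 h and passed at neither time (0.61 ± 0.48 at 3 h and 0.25 ± 0.48 at 0 h), nor did Uba6, a second activating enzyme (-0.37 ± 0.15 at 3 h and 0.09 ± 0.15 at 0 h).

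Of 14 genes that control proteasome gene transcription, 7 rose and 1 fell with spermine at 0 h, and 8 rose and 2 fell at 3 h, where 22% and 19.2% of all tested genes rose and fell at 0 h and 19.9% and 20.6% at 3 h. In TPM 5 rose and 2 fell at 0 h, against 10.4% and 41.5% of all tested genes. At 3 h 5 rose and 3 fell in TPM, against 11.7% and 32.2%. Nfe2l1, which encodes NRF1, the factor that restores proteasome genes when the proteasome is inhibited, had 32.4 and 33.6 FPKM in spermine 0 h, against 29.9 and 33.4 FPKM in PBS 0 h, with overlapping libraries (0.06 ± 0.08, adjusted p = 0.58), and in TPM it was lower with spermine (-0.28). For Nfe2l2, which encodes NRF2, the log2 change with spermine at 0 h was 0.33 to 0.37 on the deposited scale over the fits that left out 1 library. Ddi2, the protease that activates NRF1, had 8.08 and 8.13 FPKM in spermine 0 h, against 13.3 and 13.2 FPKM in PBS 0 h, and fell (-0.65 ± 0.07, adjusted p = 0.00044). The small Maf genes rose, Maff by 2.08 ± 0.14, Mafk by 1.46 ± 0.11 and Mafg by 1.00 ± 0.07 at 0 h. NRF1 is controlled largely after translation, which these mRNA values do not measure.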

How the data were processed

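The measurements are RNA sequencing libraries of mouse macrophages grown from bone marrow, 2 in each of 4 groups, with groups and replicate numbers taken from the titles. For the vehicle the sample labels say PBS and the series text DMSO, and for the source they say macrophages and the extraction protocol blood. The sample labels were followed. Per the labels' protocols poly-T beads captured the mRNA and random hexamers primed it. The authors deposited FPKM for 54532 genes. Per the submitters' processing notes, which give no order or role, the tools were HISAT2 2.0.5, fastp, CASAVA 1.8, DESeq2 1.20.0 and featureCounts 1.5.0-p3, with builds named mm10 and GRCm38. The sources used here give neither the strand nor the counting of multiply mapping reads.

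Multiplied by gene length, 100% of FPKM values were whole multiples of 1 library-specific step within 0.001 of a read, which gave the rebuilt reads, and that step matched median-of-ratios size factors. Genes with 1 FPKM or more in 2 or more libraries were fitted as 4 group means over 8 libraries on log2(FPKM + 1) with limma 3.58.1 (R 4.3.3), with an intensity trend, 4 residual and 2.83 prior degrees of freedom, 5 comparisons, two-sided tests and p-values adjusted over 11421 genes within a comparison. Fold changes of low genes are understated on this scale. Scripts were tested on simulated data. Tables and figures used Python 3.11.15, numpy 2.4.6, pandas 2.3.3 and matplotlib 3.10.9.

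Members, gene lists, promoter motifs and alternatives were chosen with earlier results of these data known. Named genes are the catalytic subunits, Pomp, the activators, Psmf1, the ubiquitin receptors, Psmd14, Psmd10, the 3 largest rises and falls among called members in each comparison, the highest and lowest members, and the genes nearest the FPKM threshold, while further members illustrate a role. Alternatives were the pseudocounts 0.1 and 5, no filter, a filter at 5 FPKM, no trend, TPM, quantile normalization, a replicate block, fits of the 2 groups alone, voom on rebuilt reads and leaving out each library. All 43 members have the same position in GENCODE M21. All 8 columns matched a sample. Some genes of the ubiquitin list are not reported here.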

Additional observations from a re-analysis of the deposited data

Results flagged for a closer look

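The IFN-β responses with spermine and in PBS differed, by the interaction term in limma, for 6 of the 43 proteasome genes. The log2 differences, spermine minus PBS, were -1.03 for Psme4, -0.93 for Psma5, -0.67 for Psma4, -0.57 for Psmd11, -0.55 for Psma3 and -0.53 for Psme2b. Psme4, Psma5, Psma4 and Psmd11 kept the call in TPM, and Psma3 (-0.46, adjusted p = 0.0794) and Psme2b (-0.40, adjusted p = 0.0596) did not. All 6 responses were lower with spermine in each fit that left out a single library.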

How the results depend on the processing

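The counts of called members depend on the library scale and, for the difference of responses, more on single libraries and the replicate numbers. For IFN-β in PBS 6 rose and 16 fell in TPM (median -0.24) and 10 rose and 12 fell after quantile normalization (median -0.0451). For IFN-β with spermine these were 1 and 18 in TPM (median -0.17) and 3 and 15 after quantile normalization (median -0.21). For spermine at 0 h TPM gave 17 and 4 (median 0.20) and quantile normalization a median of 0.34, and for spermine at 3 h TPM gave 10 and 4 (median 0.0921) and quantile normalization 12 rises (median 0.16). After quantile normalization 20.4% of all tested genes rose and 35.4% fell with IFN-β in PBS, and 15.1% rose and 29.9% fell with IFN-β in spermine. With spermine at 3 h 17% of all tested genes rose there. For the difference of responses TPM gave 1 higher (median -0.0628), against 8.8% of all tested genes, and quantile normalization a median of -0.14. The folds of the summed level in TPM were 0.977 for IFN-β in PBS, 0.880 for IFN-β with spermine, 1.201 for spermine at 0 h and 1.08 for spermine at 3 h, and without the 3 highest members the FPKM folds were 1.42 for IFN-β in PBS and 1.21 for spermine at 3 h. The cause of these shifts was not tested. With a pseudocount of 5 the medians were 0.18 for IFN-β in PBS, 0.46 for spermine at 0 h and 0.25 for spermine at 3 h. With no filter 4 members fell with IFN-β in spermine, a filter at 5 FPKM removed the gene that fell with spermine at 0 h (0 falls), and without Psme2b 0 fell with spermine at 3 h.

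Log2 changes that turned sign in TPM for IFN-β in PBS were those of Psmd8 (-0.15), Psmd2 (-0.44), Psmc3 (-0.25), Psmc4 (-0.24), Psmd4 (-0.26), Psme3 (-0.43), Psma7 (-0.21), Psmd13 (-0.10), Psmd6 (-0.16), Psmb1 (-0.11) and Psmd9 (-0.0293). After quantile normalization they were those of Psmb5 (-0.56), Psmd8 (-0.34), Psmd2 (-0.62), Psmb2 (-0.0434), Psmb4 (-0.0235), Psmc3 (-0.23), Psmc4 (-0.20), Psme3 (-0.34), Psma7 (-0.0767) and Psmd6 (-0.0160). With spermine, those for IFN-β were Psmd8 (-0.0788), Psma4 (-0.0184) and Zfand5 (-0.0143) in TPM, and Psmd8 (-0.22), Psma4 (-0.00405), Ubb (-0.42) and Zfand5 (-0.15) after quantile normalization. For spermine at 0 h they were Psme2b (-0.27), Psmb1 (-0.0261), Psmf1 (-0.31), Psme1 (-0.0138) and Nfe2l1 (-0.28) in TPM.

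Over the 8 fits that left out 1 library, in which the lone library of a group is assumed to vary like the others, 14 to 20 members rose with IFN-β in PBS and 2 fell (median 0.20 to 0.30), 4 to 11 rose and 4 to 8 fell with IFN-β in spermine (median 0.0928 to 0.17), 28 to 33 rose and 1 to 2 fell with spermine at 0 h (median 0.51 to 0.53), 12 to 23 rose and 1 fell with spermine at 3 h (median 0.27 to 0.31), and 1 to 9 were lower in the difference of responses (median -0.22 to -0.16). Same-numbered libraries did not deviate together in every pair of groups (correlations from -0.13 to 0.37 over all genes and from -0.48 to 0.72 over the 43 members, negative in each pair with spermine 3 h), and what the prefixes BM1 and BM2 of the titles mean is not stated, so the numbers were not taken to pair the libraries. With the replicate block 2 members fell with spermine at 3 h, and no called member lost its call. With the numbers of spermine 3 h crossed, an alternative added after seeing the data like that without Psme2b, 17 rose with IFN-β in spermine, 3 fell with spermine at 3 h and 12 were lower in the difference. The 2 libraries of a group limit the precision of every value.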

Other observations

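Over the 4 group means of log2(FPKM + 1), the mean profile of the 43 proteasome genes was most like that of Fam129a, Hax1, Polr2c, Zbtb21 and Ass1 among protein-coding genes outside the set, with Pearson correlations between 0.998 and 0.999. The points are 4 group means that share libraries and scale, and 39 of the 6236 genes whose group means ranged over at least 0.5 reached a correlation of 0.99. Ass1, argininosuccinate synthase, had group means of 3.93 in spermine 3 h, 3.51 in spermine 0 h, 3.11 in PBS 3 h and 2.14 in PBS 0 h on the log2 scale.

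Among the genes that control proteasome gene transcription, the small Maf partners answered IFN-β in opposite directions. Mafg fell with IFN-β, to 31.1 and 31.3 FPKM in spermine 3 h, against 50.8 and 56.8 FPKM in spermine 0 h, and to 5.82 and 5.71 FPKM in PBS 3 h, against 25.9 and 26.8 FPKM in PBS 0 h, and the responses differed by 1.25 ± 0.10 (log2, SE, limma adjusted p = 0.0019). Mafk rose, to 111.5 and 111.3 FPKM in spermine 3 h, against 18.8 and 22.6 FPKM in spermine 0 h, and to 59.8 and 68.3 FPKM in PBS 3 h, against 6.41 and 7.30 FPKM in PBS 0 h. Bach1, a repressor at antioxidant response elements, had 107.0 and 111.9 FPKM in spermine 3 h, against 43.8 and 42.9 FPKM in spermine 0 h, and 89.1 and 84.1 FPKM in PBS 3 h, against 24.6 and 23.9 FPKM in PBS 0 h.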
